A study of Mus musculus with 17 samples.

Results

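The comparison described here asks how blocking the kinase MEK altered the response of mouse embryonic stem cells to RAF activation, measured on newly made RNA. It is an interaction: the effect of 4-hydroxytamoxifen (4OHT) in cells given a MEK inhibitor (MEKi) minus its effect in cells given no inhibitor, computed for every gene in 1 model of raw counts. It uses 11 of the 17 libraries of the series, which are DMSO (n = 2, clones b and c), 4OHT (n = 3), MEKi (n = 3) and MEKi with 4OHT (n = 3, clones a, b and c each). All groups were E14tg2a cells (129SV) that lacked endogenous Erk1 and Erk2, expressed FLAG-ERK2 Q103A and carried cRAF-ErT2, a RAF kinase fused to a receptor domain that 4OHT activates. All were kept in serum and LIF with 250 nM PD173074, an FGF receptor inhibitor, for 24 h, after growth with Chir99021, an inhibitor of the kinase GSK3. The DMSO group was untreated (0 h), 4OHT was given at 250 nM for 2 h, and MEKi was used at 1 µM. Ethynyl uridine at 5 mM for 15 minutes marked the RNA that was captured and counted. The replicates are clones of 1 line, so p-values measure the spread between these clones, and clone a has no DMSO library. The labels do not give the time in MEKi without 4OHT, so 4OHT and a longer time in MEKi cannot be told apart in the difference between MEKi with 4OHT and MEKi.

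RAF kinases phosphorylate MEK, MEK phosphorylates ERK, and ERK phosphorylates transcription factors, chromatin regulators and kinases of the RSK family. This raises transcription of immediate early genes, such as Fos and Egr1, and of feedback inhibitors, such as the Sprouty proteins and Dusp phosphatases, which act back on the pathway. In embryonic stem cells ERK signalling is known for lowering naive pluripotency genes and preparing cells for differentiation, and MEK inhibitors are used to hold cells in the naive state.

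Library totals ran from 7102570 to 11093390 counts, and 3 counts in the deepest library equal 0.247 CPM (CPM, a library's counts scaled to a fixed total after TMM scaling, is the unit of all levels below). Pou5f1 was at 103 to 309.6 CPM and Sox2 at 156 to 247 CPM over the 11 libraries, and the summed level of the primitive streak and mesoderm markers was 9.65 to 19.5 CPM. The summed fibroblast markers, of which 4 of 12 were tested, were at 349.9 to 379 CPM in 4OHT and 109 to 109.5, 113 to 123 and 120.1 to 123 in DMSO, MEKi and MEKi with 4OHT, a difference carried by Vim (286 to 309.7 against 31.8 to 50.7 CPM). Mapk3 (Erk1), a knocked-out gene, was at 7.6 to 16.3 CPM, and counts per symbol do not show which part of a gene the reads came from. A set of 14 loci took 9.38% to 32.6% of a library's counts. Summed primitive endoderm markers were at 3189.7 to 9640.3 CPM and summed trophoblast markers at 2882.7 to 8812.4 CPM. With these loci left out, the tested members of the 2 lists went from 17 to 16 and from 13 to 12. Background over long genes was 12.9 CPM per Mb in MEKi a and 9.41 in MEKi with 4OHT b, against 2.93 to 6.56 in the other 9 libraries. Without the 2 libraries of highest background, 1051 genes were called for 4OHT with MEKi, from fewer libraries, beside 2188 with all. With the 14 loci left out and library totals as the scaling it was 2465. Beyond such alternatives, the part of these library differences in the results was not tested. In bulk samples, fewer cells of a type and less RNA per cell cannot be told apart. How far MEK activity fell was not measured.

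Fewer genes passed the test for a response to 4OHT with MEKi than without it. Without the inhibitor, 7752 of 14907 tested genes (52%) changed with 4OHT, 3832 upward (25.7%) and 3920 downward (26.3%), at an edgeR adjusted p under 0.05. With MEKi, 2188 (14.7%) changed, 1140 upward (7.65%) and 1048 downward (7.03%). The interaction was called for 6022 genes (40.4%), of which 3147 (21.1%) were higher and 2875 (19.3%) lower. For 5317 of the 7752 responding genes (68.6%) the interaction opposed the original response. The interaction contains the same DMSO and 4OHT libraries that called these genes as responding, so the direction of this share is partly set by the choice of genes and nothing is read from it. The split of interaction calls depends on scaling: 52.3% were higher with TMM, 86.5% with library totals as the only scaling and 76.6% with library totals after the 14 loci were left out. The median interaction over all tested genes was 0.02 on the log2 scale with TMM, 0.48 with library totals and 0.30 with the loci left out. No called interaction was called in the other direction with library totals, though 621 of the 6022 changed sign.

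Responding genes were sorted into classes. A response was lost when the interaction opposed it and no response passed the test with MEKi, reversed when 4OHT moved the gene the opposite way with MEKi, and reduced when it moved the same way with an opposing interaction. It was kept when it passed the test in the same direction with no opposing interaction, and undetermined otherwise. Kept therefore includes responses with an interaction called in their own direction, which were larger with MEKi. Of 3832 genes that rose, 2100 were lost, 280 reversed, 180 reduced, 331 kept and 941 undetermined. Of 3920 that fell, 2327 were lost, 246 reversed, 184 reduced, 274 kept and 889 undetermined. The share of rises that fell with MEKi was 7.31%, beside 7.03% of all tested genes, and the share of falls that rose with MEKi was 6.28%, beside 7.65%. Both shares are close to the background, so the size of the reversed class is not a result about the responding genes. Of the rises, 511 (13.3%) also rose with MEKi, beside 7.65% of all tested genes, and of the falls 458 (11.7%) also fell with it, beside 7.03%. A missing call is not a response of 0: for 3237 of the 4427 lost genes the 95% interval of the remaining response lay within 1.5-fold in both directions. This also held for 7744 of all 14907 tested genes. The lost class requires that no response was called with MEKi, so its count is partly set by the rule. A further 376 genes, called gained here, passed the test for 4OHT only with MEKi and also passed it for the interaction.

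**Figure D1:**
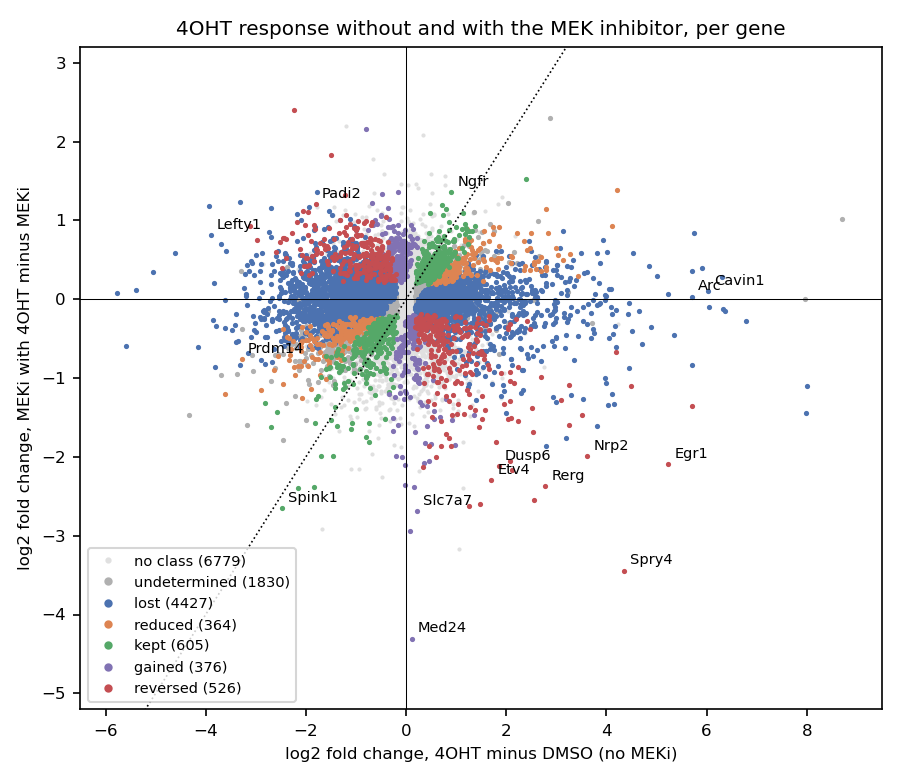
Each point is 1 of 14907 tested genes, with the log2 fold change of 4OHT over DMSO on the x axis and that of MEKi with 4OHT over MEKi on the y axis, coloured by class. The dotted line marks equal responses, and the largest rises on the x axis have a median near 0 on the y axis (-0.10 for rises of 3 or more).

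Genes were binned by the size of their response without MEKi, which shares no library with the response with MEKi. The median response with MEKi was 0.06 for the 2880 genes that rose by under 1 log2 unit, 0.03 for 632 that rose by 1 to 2, -0.02 for 201 that rose by 2 to 3 and -0.10 for 119 that rose by 3 or more. For the 2124, 1457, 288 and 51 genes that fell by the same sizes it was -0.02, -0.07, -0.11 and -0.22. The share that was reversed was 6.22%, 11.1%, 10.4% and 8.40% of the rises in these bins, beside 7.03% of all tested genes that fell with MEKi. It was 7.06%, 5.28%, 6.25% and 1.96% of the falls (1 of 51 in the last bin), beside 7.65% of all tested genes that rose with MEKi. Across all 14907 genes the responses, which share no library, had a Pearson's r of 0.029 and a Spearman's rho of 0.085, given as a description since genes are not independent replicates. Among the 3832 rises these values were -0.16 and -0.038, and among the 3920 falls 0.074 and 0.076.

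**Figure D2:**
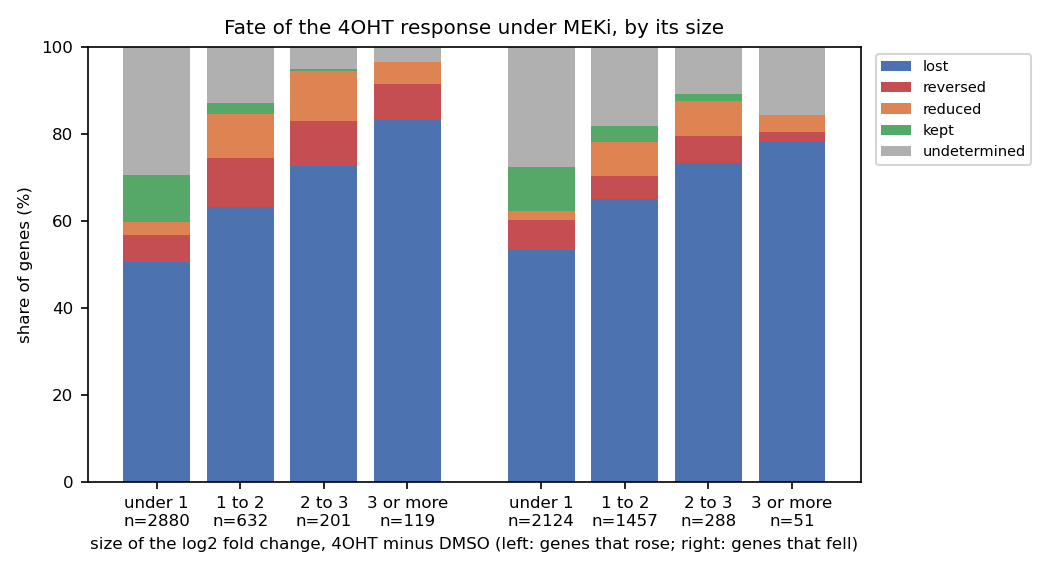
Bars give, for genes binned by the size of their log2 fold change with 4OHT alone (rises on the left, falls on the right), the share in percent that was lost, reversed, reduced, kept or undetermined with MEKi. Kept rises were mostly small: 314 of 331 were under 1 log2 unit.

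The 280 genes that rose with 4OHT but fell with it under MEKi included feedback inhibitors and transcription factors of the ERK pathway among those of largest change. Spry4, a Sprouty protein that restrains receptor and RAS signalling (chr18:38586247-38601415, mm10), was at 107 and 120.4 CPM in DMSO, 2182, 2306 and 2473 in 4OHT, 16.4, 19.3 and 17 in MEKi and 1.52, 2.2 and 1.08 in MEKi with 4OHT. The groups did not overlap, and 4OHT libraries were highest and those of MEKi with 4OHT lowest. It rose 20.4-fold without MEKi (log2 4.35 ± 0.11, SE) and was 10.9-fold lower with 4OHT under MEKi (-3.44 ± 0.17). The interaction was -7.79 ± 0.19 (adjusted p = 4.1e-19), and -7.44 in clone b and -8.08 in clone c. The rule that named reversed genes required the same sign in both clones, so nothing is read from their agreement. Egr1, an immediate early zinc finger factor (chr18:34859823-34864984), was at 41.3 and 57.1 CPM in DMSO, 1804, 1855 and 1899 in 4OHT, 7.19, 5.56 and 3.59 in MEKi and 0.95, 1.2 and 1.57 in MEKi with 4OHT, with an interaction of -7.33 ± 0.34 (adjusted p = 7.9e-12). Both genes were already lower in MEKi than in DMSO, at log2 differences of -2.70 and -3.21.

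Dusp6, a cytoplasmic phosphatase of ERK (chr10:99263231-99267489), was at 70.6 and 83.4 CPM in DMSO, 274, 265 and 293 in 4OHT, 22, 31.1 and 20.4 in MEKi and 5.51, 5.89 and 5.2 in MEKi with 4OHT. Its groups did not overlap either, in the same order. Its rise of 1.85 ± 0.11 stood against -2.12 ± 0.14 with MEKi, an interaction of -3.97 ± 0.18 (adjusted p = 5.3e-14). Etv4, an ETS factor of the PEA3 group (chr11:101769742-101785371), was at 15.6 and 16.8 CPM in DMSO, 54.2, 53.1 and 50.2 in 4OHT, 13, 12.1 and 10.8 in MEKi and 1.99, 2.6 and 2.65 in MEKi with 4OHT, with an interaction of -3.99 ± 0.20 (adjusted p = 2.9e-13). The difference of Etv4 between MEKi and DMSO was -0.44 and did not pass the test (adjusted p = 0.16).

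Nrp2, Rerg and Ccdc3 showed the same turn with no called effect of MEKi alone. Nrp2, a co-receptor for semaphorins and VEGF (chr1:62703285-62818695), was at 47.3 and 48.3 CPM in DMSO, 545, 572 and 636 in 4OHT, 29, 44 and 39.9 in MEKi and 6.93, 12 and 9.51 in MEKi with 4OHT. It rose 12.2-fold and was 3.96-fold lower with 4OHT under MEKi (interaction -5.60 ± 0.30, adjusted p = 1.7e-09). Rerg, a RAS-like GTPase (chr6:137054825-137170497), was at 16 and 15.8 CPM in DMSO, 117, 93.9 and 116 in 4OHT, 13.5, 12.4 and 18 in MEKi and 3.7, 2.89 and 1.96 in MEKi with 4OHT, an interaction of -5.15 ± 0.24 (adjusted p = 1.0e-13). In all of these the 4OHT libraries were highest and those of MEKi with 4OHT lowest. Ccdc3 (chr2:5137776-5230878) was at 5.43 and 4.82 CPM in DMSO, 19.3 to 24.8 in 4OHT, 4.91 to 7.19 in MEKi and 0.66 to 2.2 in MEKi with 4OHT (interaction -4.13 ± 0.36), and AC113595.3, a symbol with no match in the annotation, rose 4.33-fold and was 4.5-fold lower under MEKi. The 8 genes named so far for this turn kept their class in each of 22 alternatives of processing.

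Promoters are shown for some of the genes that turned in either direction and for a kept rise, as the 250 bases before the start in RefSeq on GRCm38.p6, 5′ to 3′ on the gene's strand. Dusp6 (chr10:99262981-99263230, plus strand) and Nrp2 (chr1:62703067-62703316, plus strand) rose and then fell, Cacng5 (chr11:107915056-107915305, minus strand) and Padi2 (chr4:140906110-140906359, plus strand) fell and then rose, and Ngfr (chr11:95587699-95587948, minus strand) was kept. Capitals mark a match to the AP-1 motif TGANTCA, which was found in Cacng5 at -214 to -208. The other stretches hold no match on either strand to this motif, to the ETS core GGAAGTG or to the CArG box.
Dusp6: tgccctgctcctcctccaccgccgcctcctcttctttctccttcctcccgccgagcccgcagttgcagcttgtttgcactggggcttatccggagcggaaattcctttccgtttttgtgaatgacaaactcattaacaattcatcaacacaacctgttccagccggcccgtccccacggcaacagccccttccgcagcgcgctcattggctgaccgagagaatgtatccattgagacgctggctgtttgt
Nrp2: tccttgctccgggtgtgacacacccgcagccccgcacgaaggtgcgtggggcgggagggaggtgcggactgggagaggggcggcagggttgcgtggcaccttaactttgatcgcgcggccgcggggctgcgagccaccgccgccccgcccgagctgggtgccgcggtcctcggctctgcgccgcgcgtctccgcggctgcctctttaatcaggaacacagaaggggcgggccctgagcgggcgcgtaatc
Cacng5: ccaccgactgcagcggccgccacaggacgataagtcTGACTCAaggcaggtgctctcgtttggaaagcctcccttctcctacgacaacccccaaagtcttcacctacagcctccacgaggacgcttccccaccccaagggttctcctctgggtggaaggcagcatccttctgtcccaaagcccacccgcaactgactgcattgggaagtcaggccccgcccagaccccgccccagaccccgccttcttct
Padi2: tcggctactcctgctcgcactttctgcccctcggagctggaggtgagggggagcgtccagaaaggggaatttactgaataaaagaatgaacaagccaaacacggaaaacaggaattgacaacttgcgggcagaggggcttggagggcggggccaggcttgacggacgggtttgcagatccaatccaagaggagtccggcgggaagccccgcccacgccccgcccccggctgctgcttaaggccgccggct
Ngfr: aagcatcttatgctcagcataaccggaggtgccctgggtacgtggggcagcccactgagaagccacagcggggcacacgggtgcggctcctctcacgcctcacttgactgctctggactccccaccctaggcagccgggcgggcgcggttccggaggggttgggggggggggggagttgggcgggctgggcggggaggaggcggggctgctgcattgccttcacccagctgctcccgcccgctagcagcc

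Over the 300 bases from 250 before to 50 after the start, on both strands, the ETS core was present in 24 of 199 promoters of genes that rose and then fell, 283 of 1653 of lost rises, 52 of 266 of kept rises and 8 of 195 of genes that fell and then rose. It was present in 1529 of 11322 promoters of all tested genes (13.5%). The AP-1 motif was present in 11, 97, 13 and 12 of these promoters in turn, and in 584 of the 11322. The CArG box was present in 0, 32, 3 and 6, and in 150 of the 11322. A 4th motif, CRE, was present in 1, 53, 16 and 3, and in 343 of the 11322. These counts describe letters in a window, with no test.

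Feedback inhibitors of the Sprouty, Spred and Sef families included 5 genes that turned, of 8 rises, beside 280 of all 3832 rises. Of 10 tested, 8 rose and 0 fell with 4OHT, whereas 0 rose and 6 fell with MEKi, and the interaction was lower for 9. The median response was 1.15 without and -0.67 with MEKi, beside -0.02 and 0.00 over all tested genes. With library totals 3 fell with MEKi and the interaction was lower for 7, beside 193 and 742 of all 14907 tested genes. Beside this list, 25.7% of all tested genes rose with 4OHT, 7.03% fell with MEKi and 19.3% had a lower interaction. Spred1, which restrains RAS together with neurofibromin, was at 157 and 148 CPM in DMSO, 444, 412 and 445 in 4OHT, 99, 108 and 118 in MEKi and 39.8, 36.4 and 37.1 in MEKi with 4OHT, with an interaction of -3.03 ± 0.12 (adjusted p = 1.0e-14). Its groups did not overlap. Spry2 was at 70.2 and 82 CPM in DMSO, 98.7 to 108 in 4OHT, 31.3 to 35 in MEKi and 13.2 to 14.5 in MEKi with 4OHT, and its small rise (0.45 ± 0.09) did not pass the test with library totals (adjusted p = 0.52). Spred3 (overlapped by Ggn) and Il17rd, which encodes Sef, were also reversed, but Il17rd was not with library totals (adjusted p = 0.065 without and 0.056 with MEKi).

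Among 12 MAP kinase phosphatase genes, 7 rose and 0 fell with 4OHT, and 1 rose and 2 fell with MEKi. The median responses were 1.65 and -0.08. The shares of all tested genes were 25.7% and 26.3% with 4OHT, and 7.65% and 7.03% with MEKi. Dusp6 and the nuclear phosphatase Dusp4 were the reversed members, and Dusp4 was at 19.8 and 19.4 CPM in DMSO, 120.3 to 139 in 4OHT, 8.05 to 12.9 in MEKi and 4.94 to 5.49 in MEKi with 4OHT. The other 5 of the 7 rises were lost. Of all 3832 rises, 2100 were lost and 280 reversed. Dusp5, which rose 22.7-fold, was at 8.39 and 7.87 CPM in DMSO, 177 to 196 in 4OHT, 5.17 to 8.51 in MEKi and 4.18 to 5.69 in MEKi with 4OHT. Its remaining response of -0.41 ± 0.17 had an adjusted p of 0.12, and 0.045 without MEKi with 4OHT b. Of 6 genes for mRNA decay factors and EGR corepressors all 6 rose with 4OHT and had a lower interaction, and Zfp36l1 and Zfp36l2, which bind AU-rich mRNA, were reversed. With library totals both left that class: the rise of Zfp36l1 had an adjusted p of 0.15, and the fall of Zfp36l2 under MEKi one of 0.097. The latter was 0.077 without the 2 libraries of highest background and 0.071 with clones b and c only. Over all tested genes with TMM, 25.7% rose with 4OHT and 19.3% had a lower interaction.

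**Figure D3:**
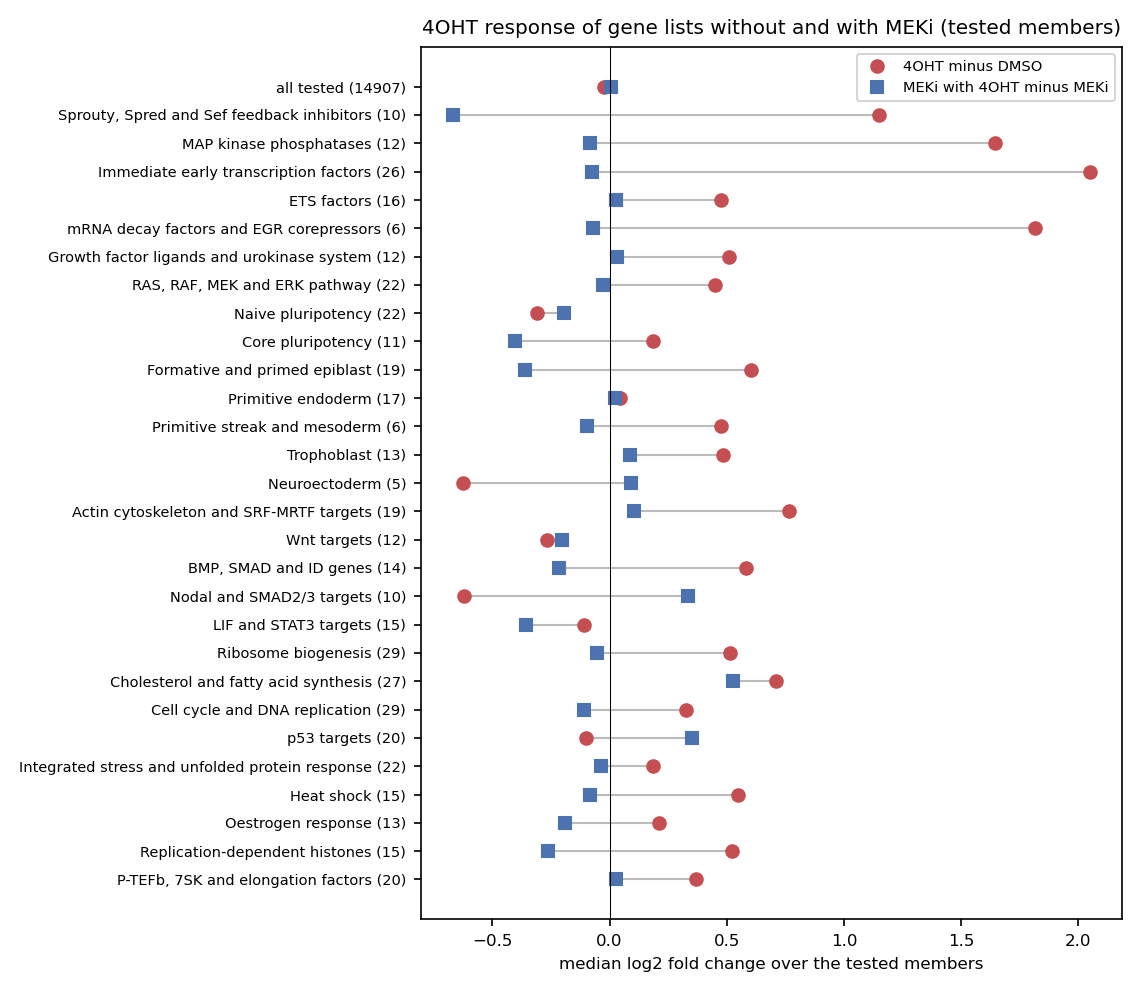
Median log2 fold change over the tested members (number in brackets) of the gene lists with at least 5 tested members and of all tested genes, for 4OHT over DMSO and for MEKi with 4OHT over MEKi. The medians of the cholesterol list lie close together, at 0.71 and 0.53, and the Sprouty list goes from 1.15 to -0.67.

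Most immediate early genes rose without MEKi. Of 26, 21 rose and 1 fell with 4OHT, and 2 rose and 3 fell with MEKi, with medians of 2.05 and -0.07. Of the 21 rises, 16 were lost and 3 reversed (Egr1, Myc and Trib1), beside 2100 and 280 of all 3832 rises. The shares of all tested genes were 25.7% and 26.3% with 4OHT, and 7.65% and 7.03% with MEKi. Myc (chr15:61985391-61990374) was at 20.1 and 26 CPM in DMSO, 65.2, 71.7 and 54.4 in 4OHT, 10.1, 8.18 and 6.02 in MEKi and 1.52, 1.1 and 1.27 in MEKi with 4OHT, so its 4 groups did not overlap. It rose 2.76-fold and was 6.08-fold lower under MEKi (interaction -4.07 ± 0.32, adjusted p = 5.5e-10). Phlda1, a gene of the PHLDA family induced by growth factors (chr10:111506286-111508645), was at 3.95 and 3.06 CPM in DMSO, 183, 191 and 181 in 4OHT, 2.4, 2.45 and 1.84 in MEKi and 0.76, 0.60 and 1.18 in MEKi with 4OHT. Its interaction was -7.07 ± 0.33, but its fall under MEKi (-1.35, adjusted p = 0.0017) was -1.10 without the 2 libraries of highest background, with an adjusted p of 0.064. Nr4a1, an orphan nuclear receptor and the reduced member, was at 26.8 and 28.3 CPM in DMSO, 152 to 176 in 4OHT, 24.2 to 26.8 in MEKi and 32.4 to 41.2 in MEKi with 4OHT.

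Arc, Cavin1 and Fosl2 are examples of lost rises. Arc, a neuronal immediate early gene (chr15:74669083-74672570), was at 12.8 and 17.3 CPM in DMSO, 671, 839.9 and 824 in 4OHT, 13.2, 13.6 and 13 in MEKi and 13.2, 12.8 and 14.7 in MEKi with 4OHT. Its MEKi groups overlapped, and the remaining response was 0.03 (95% interval -0.23 to 0.30) beside a rise of 5.70 ± 0.13. Cavin1, a coat protein of caveolae (chr11:100956733-100970887), was at 5.59 and 7.69 CPM in DMSO, 415, 429 and 443 in 4OHT, 10.2, 16 and 8.15 in MEKi and 11, 11.2 and 13.3 in MEKi with 4OHT, with an interaction of -5.92 ± 0.39. Fosl2, an AP-1 subunit (chr5:32135801-32157842), was at 2.47 and 3.24 CPM in DMSO, 207 to 241 in 4OHT, 2.72 to 4.74 in MEKi and 2.06 to 4.59 in MEKi with 4OHT. In these 3 genes the 4OHT libraries lay far above all others. Egr3 and Ankrd63 had the most negative interactions (-9.42 ± 1.33 and -9.11 ± 1.34), but both were under 1 CPM in every library without 4OHT and every library with MEKi, so these sizes are imprecise.

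Other lost rises had the same form. Plaur, the urokinase receptor, was at 37.9 and 29.5 CPM in DMSO, 846 to 861 in 4OHT, 29.6 to 44.8 in MEKi and 31.4 to 35.8 in MEKi with 4OHT. Fos was at 4.69 and 7.41 CPM in DMSO, 98.4 to 105 in 4OHT, 0.65 to 2.65 in MEKi and 1.23 to 1.96 in MEKi with 4OHT, so its MEKi groups overlapped each other and lay below DMSO. Nab1, a corepressor of EGR factors, was at 12.9 and 14.8 CPM in DMSO, 232 to 239 in 4OHT, 11.4 to 15.7 in MEKi and 11.8 to 17.1 in MEKi with 4OHT. Hbegf, a ligand of the EGF receptor, lay between lost and reversed. It was at 30.7 and 39.6 CPM in DMSO, 559 to 671 in 4OHT, 26.2 to 29.1 in MEKi and 20.8 to 24.2 in MEKi with 4OHT, and the remaining response of -0.34 ± 0.12 had an adjusted p of 0.056, or 0.023 with clone as a replicate block. Its class changed without DMSO b, DMSO c, 4OHT a, 4OHT b, 4OHT c or MEKi with 4OHT c.

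**Figure D4:**
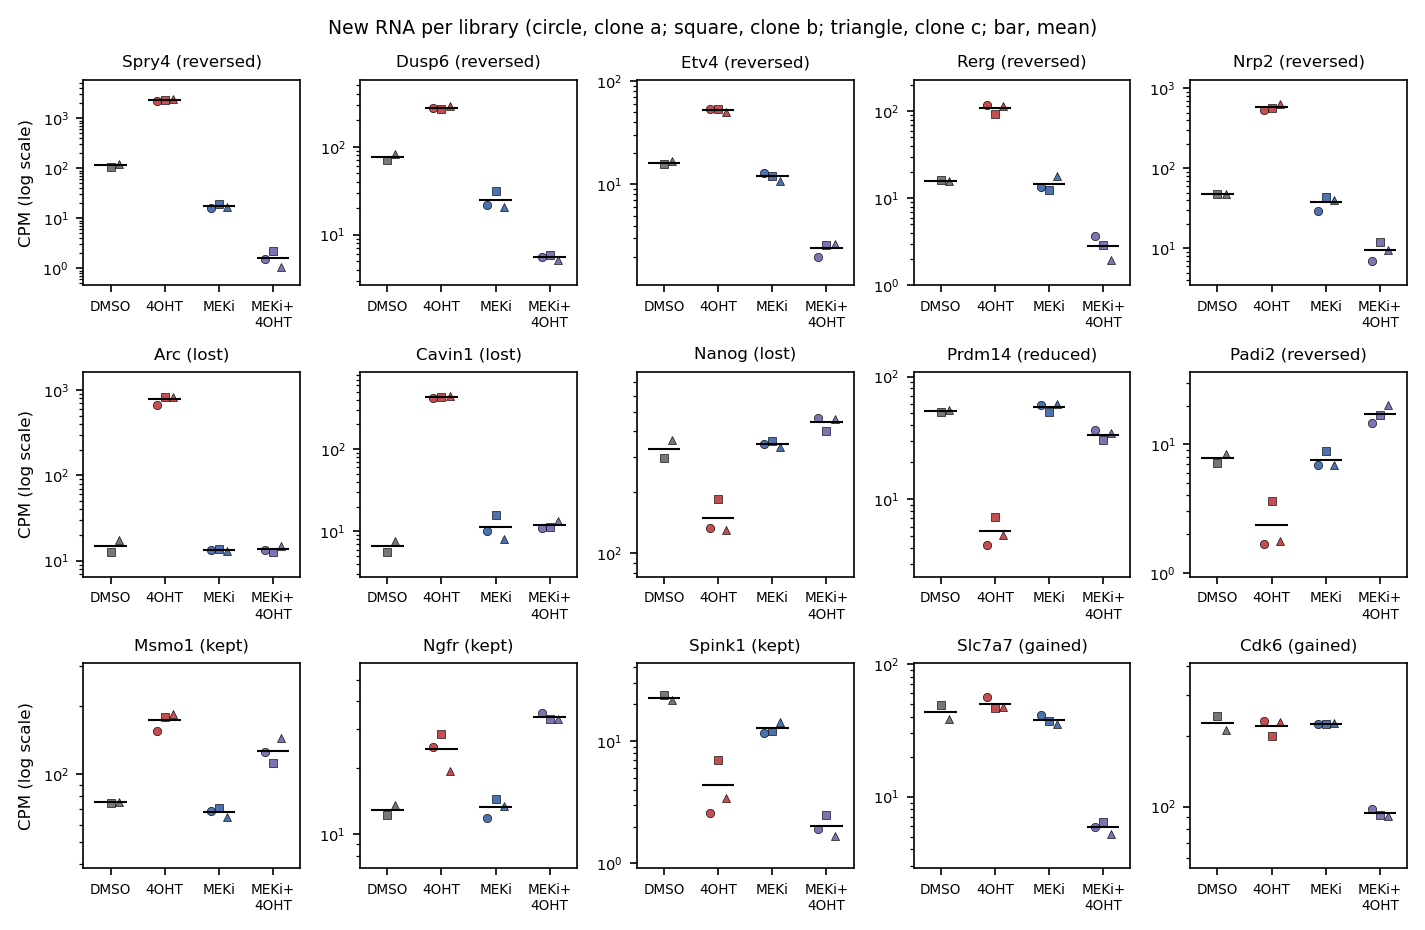
New RNA of 15 genes in CPM on a log axis in DMSO, 4OHT, MEKi and MEKi with 4OHT, with 1 symbol per clone and a bar at the group mean. Spry4, Dusp6, Etv4, Rerg and Nrp2 are lowest in MEKi with 4OHT, Arc and Cavin1 are highest in 4OHT, and Slc7a7 and Cdk6 are low only in MEKi with 4OHT.

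ETS factor genes fell into several classes. Of 16, 11 rose and 3 fell with 4OHT, and 2 rose and 5 fell with MEKi. With library totals 4 rose with 4OHT, beside 1293 of 14907 tested genes with that scaling. Of the 11 rises with TMM 3 were reversed, beside 280 of all 3832 rises. Of all tested genes, 25.7% rose and 26.3% fell with 4OHT, and 7.65% rose and 7.03% fell with MEKi. The 3 PEA3 genes Etv1, Etv4 and Etv5 were all reversed, with responses of 0.33, 1.70 and 0.65 without MEKi and -2.12, -2.30 and -0.91 with it. The rises of Etv1 and Etv5 did not pass the test with library totals (adjusted p = 0.89 and 0.12), nor did that of Etv1 without DMSO c (0.14). Etv3, an ETS repressor, kept its rise: it was at 29.8 and 30.6 CPM in DMSO, 47.4 to 50.4 in 4OHT, 20.2 to 22.7 in MEKi and 32.6 to 33 in MEKi with 4OHT, and the interaction was -0.11 ± 0.14 (adjusted p = 0.58).

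BMP and ID genes were split as well. Of 14, 6 rose and 5 fell with 4OHT, and 1 rose and 6 fell with MEKi. With library totals 4 rose and 6 fell with 4OHT, and 3 fell with MEKi. With that scaling 1293, 4823 and 193 of all 14907 tested genes did so. Over all tested genes 25.7% rose and 26.3% fell with 4OHT, and 7.03% fell with MEKi. Id3, an inhibitor of basic helix-loop-helix factors, was at 11.8 and 13.1 CPM in DMSO, 27.5 to 31.5 in 4OHT, 1.46 to 4.25 in MEKi and 0.29 to 0.50 in MEKi with 4OHT, an interaction of -3.88 ± 0.43 (adjusted p = 1.4e-07). Its relative Id1 was at 5.18 and 5.0 CPM in DMSO, 75.8 to 85.8 in 4OHT, 3.49 to 7.85 in MEKi and 4.84 to 5.49 in MEKi with 4OHT, so its 15.8-fold rise was lost (remaining response 0.06, 95% interval -0.40 to 0.52). The interactions of both were negative, and the 2 genes were not tested against each other. The ligand Bmp4 (overlapped by Gm15217) rose 4.08-fold and was 2.86-fold lower under MEKi. Smad7, an inhibitory SMAD, was at 523 and 564 CPM in DMSO, 890.2 to 960.3 in 4OHT, 386 to 426 in MEKi and 206 to 265 in MEKi with 4OHT, and its rise had an adjusted p of 0.063 with library totals. Bmp7 went the other way, at 10.2 and 14.8 CPM in DMSO, 3.96 to 4.34 in 4OHT, 9.32 to 15.2 in MEKi and 19.2 to 20.1 in MEKi with 4OHT.

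Falls were also mostly lost. Fbxo15, a gene of pluripotent cells, was at 401 and 389 CPM in DMSO, 96.2 to 127 in 4OHT, 366 to 430.5 in MEKi and 369 to 391 in MEKi with 4OHT, and only its 4OHT group stood apart. Ccnd1, which encodes cyclin D1, was at 40.6 and 40.7 CPM in DMSO, 9.53 to 16.2 in 4OHT, 44.7 to 65.4 in MEKi and 49.7 to 50.6 in MEKi with 4OHT. Tex26 had the most positive interaction (5.2 ± 0.49, adjusted p = 1.1e-08), from 58 and 64 counts in DMSO, 3, 0 and 2 in 4OHT, 46, 25 and 45 in MEKi and 68, 78 and 73 in MEKi with 4OHT. Its size rests on those few counts in 4OHT. Lefty1, an inhibitor of Nodal, was at 51.3 and 73.9 CPM in DMSO, 1.39, 8.79 and 3.98 in 4OHT, 44.5, 42.9 and 50.2 in MEKi and 66.6, 73.2 and 103 in MEKi with 4OHT. Its remaining response of 0.81 ± 0.30 had an adjusted p of 0.096, or 0.034 with clone as a replicate block. It was also classed otherwise without 4OHT a or 4OHT b.

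Naive pluripotency genes included lost, reversed, reduced and gained members. Of 22, 3 rose and 10 fell with 4OHT, and 1 rose and 8 fell with MEKi. Library totals gave 5 falls with MEKi, beside 193 of 14907 tested genes with that scaling. The shares of all tested genes were 25.7% and 26.3% with 4OHT, and 7.65% and 7.03% with MEKi. Nanog was at 296 and 363 CPM in DMSO, 133, 185 and 131 in 4OHT, 348, 357 and 336 in MEKi and 464, 403 and 462 in MEKi with 4OHT, lowest in 4OHT and highest in MEKi with 4OHT. Its fall (-1.15 ± 0.13) was classed as lost, since the remaining 0.35 ± 0.12 had an adjusted p of 0.058, 0.039 with DESeq2 and 0.026 without 4OHT b. Prdm14, a regulator of the naive state, was at 51 and 53.2 CPM in DMSO, 4.27, 7.24 and 5.16 in 4OHT, 59.1, 51.7 and 60.2 in MEKi and 36.4, 30.2 and 34.4 in MEKi with 4OHT. Part of its fall remained, 9.72-fold without MEKi and 1.7-fold with it (adjusted p = 6.1e-05). Klf5, a Kruppel-like factor of the naive network, turned in the opposite sense, at 342 and 356 CPM in DMSO, 731 to 784 in 4OHT, 249 to 269 in MEKi and 139 to 148 in MEKi with 4OHT (interaction -1.96 ± 0.10). Manba, a lysosomal enzyme, did the same, at 125 and 126 CPM in DMSO, 278 to 330.0 in 4OHT, 81.3 to 98.3 in MEKi and 42.1 to 50.6 in MEKi with 4OHT.

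Fgf4, the main FGF ligand made by embryonic stem cells, fell and then rose, at 205 and 245 CPM in DMSO, 93.1 to 102 in 4OHT, 236 to 273 in MEKi and 307 to 322 in MEKi with 4OHT. Its response with MEKi was 0.33 ± 0.08 (adjusted p = 0.0086), and 0.32 (adjusted p = 0.069) without the 2 libraries of highest background. It also left its class without MEKi c or MEKi with 4OHT a. Lifr, the LIF receptor gene, was at 255 and 245 CPM in DMSO, 97.7 to 108 in 4OHT, 247 to 263 in MEKi and 151 to 160.1 in MEKi with 4OHT, so part of its fall remained (-0.69 ± 0.06 against -1.28 ± 0.07). Klf4 was reduced too, but its remaining fall (-0.22 ± 0.07, adjusted p = 0.042) did not pass the test without MEKi a (0.075), MEKi b (0.11) or any 1 library of MEKi with 4OHT. Of 11 core pluripotency genes, 3 rose and 1 fell with 4OHT, and 0 rose and 6 fell with MEKi. With library totals 0 rose with 4OHT and 3 fell with MEKi, beside 1293 and 193 of 14907 tested genes with that scaling. The share of rises with 4OHT is near that of all tested genes (25.7%), so nothing is read from it. Of all tested genes 7.03% fell with MEKi. Dppa2, a chromatin factor of pluripotent cells, was at 69.1 and 61.7 CPM in DMSO, 91.5 to 105 in 4OHT, 39.2 to 42.6 in MEKi and 15.8 to 20.5 in MEKi with 4OHT, and its rise had an adjusted p of 0.18 with library totals. Pou5f1 and Sox2 were not called with or without MEKi. Sox2 was uncalled in 22 of 22 alternatives and Pou5f1 in 19: its difference without MEKi (0.63 ± 0.28, adjusted p = 0.08) had an adjusted p of 0.018 with limma-voom, 0.005 with clones b and c only and 0.047 without 4OHT a.

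Of 19 formative and primed epiblast genes, 10 rose and 3 fell with 4OHT, and 0 rose and 7 fell with MEKi, with medians of 0.61 and -0.36. With library totals 4 fell with MEKi, beside 193 of 14907 tested genes with that scaling. Beside this list, 25.7% of all tested genes rose and 26.3% fell with 4OHT, and 7.65% rose and 7.03% fell with MEKi. Dnmt3a, a de novo DNA methyltransferase, was at 31.7 and 29.7 CPM in DMSO, 126 to 137 in 4OHT, 28.3 to 35.7 in MEKi and 27.1 to 31.8 in MEKi with 4OHT, and its rise was lost. Pou3f1, a POU factor of the epiblast, was at 1.56 and 1.48 CPM in DMSO, 19.2 to 23 in 4OHT, 0.38 to 0.98 in MEKi and 0.57 to 1.00 in MEKi with 4OHT. Zic2 turned, at 35.5 and 32.9 CPM in DMSO, 52.9 to 65.5 in 4OHT, 15.5 to 21.6 in MEKi and 7.45 to 9.78 in MEKi with 4OHT. Otx2, a homeobox factor of the formative state, kept its fall, at 24.6 and 26.1 CPM in DMSO, 13 to 17.9 in 4OHT, 18.4 to 26 in MEKi and 10.3 to 15.8 in MEKi with 4OHT (interaction -0.16 ± 0.24, adjusted p = 0.64). Among 10 genes of Nodal signalling and its targets, Lefty1 and Lefty2 lost their falls and Skil lost its rise.

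The 246 genes that fell with 4OHT and rose with it under MEKi begin, in the order of the rule for named genes, with Cacng5, Padi2 and Fam131c. Padi2, a peptidylarginine deiminase (chr4:140906344-140952586), was at 7.16 and 8.43 CPM in DMSO, 1.69, 3.62 and 1.76 in 4OHT, 6.94, 8.83 and 6.89 in MEKi and 14.5, 17 and 20.3 in MEKi with 4OHT. The 4OHT libraries were lowest, those of MEKi with 4OHT highest, and DMSO and MEKi overlapped between them. The interaction was 3.01 ± 0.33 (adjusted p = 1.2e-07). Rasgef1a, an exchange factor for RAS family proteins, was at 18.4 and 19.4 CPM in DMSO, 0.89, 2.76 and 3.16 in 4OHT, 17.4, 16 and 21.4 in MEKi and 37.8, 31.1 and 36.5 in MEKi with 4OHT (interaction 4.05 ± 0.33). Tmem205, overlapped by Ccdc159, was at 8.47 and 11.3 CPM in DMSO, 4.37 to 5.74 in 4OHT, 5.17 to 7.08 in MEKi and 11 to 14.4 in MEKi with 4OHT. Padi2, Rasgef1a and Tmem205 kept their class in all 22 alternatives. Cacng5, Fam131c, Fam213b (overlapped by Mmel1), Hyal1 (overlapped by Hyal3), Eps8l2 and Arhgef19 kept it in 15, 16, 17, 17, 17 and 9 of 22. Their interactions were 2.55, 2.27, 2.33, 3.15, 2.07 and 2.78. Cacng5 left the class without DMSO b, DMSO c, 4OHT a, 4OHT b, 4OHT c or MEKi with 4OHT a. Fam131c left it without DMSO c, MEKi a, 4OHT c or MEKi with 4OHT c, and Hyal1 without MEKi a, MEKi b or MEKi with 4OHT c. Fam213b and Eps8l2 left it without DMSO c, MEKi a or MEKi with 4OHT c. Arhgef19 left it without DMSO b, MEKi a, MEKi b, 4OHT c, MEKi with 4OHT a, MEKi with 4OHT b or MEKi with 4OHT c.

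Kept responses were mostly modest. Ngfr, a neurotrophin receptor (chr11:95568818-95587735), was at 12.3 and 13.5 CPM in DMSO, 24.9, 28.4 and 19.5 in 4OHT, 11.9, 14.4 and 13.5 in MEKi and 35.3, 33.2 and 33.1 in MEKi with 4OHT. Both groups with 4OHT lay above their controls. The responses were 0.90 ± 0.16 and 1.36 ± 0.14, and the interaction was 0.46 ± 0.21 (95% interval 0.02 to 0.89, adjusted p = 0.087). With library totals the interaction was 0.93 (adjusted p = 0.0025). Tgfb1i1, a focal adhesion protein, was at 1.23 and 0.65 CPM in DMSO, 4.45 to 5.52 in 4OHT, 1.14 to 1.36 in MEKi and 2.84 to 4.39 in MEKi with 4OHT. Its interaction was -0.88 and did not pass the test (adjusted p = 0.15). Sertad3 kept rises of 1.14 and 1.09. It was kept in 21 of 22 alternatives, and not without MEKi c. Gadd45b, a stress-response gene, rose by 0.48 without and 1.10 with MEKi, but its rise without MEKi had an adjusted p of 0.32 without DMSO b and 0.057 without 4OHT a. The Gadd45b interaction was 0.62 (adjusted p = 0.041, and 0.052 with DESeq2 size factors), toward a larger rise with MEKi.

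Among kept falls, Spink1, a trypsin inhibitor (chr18:43728082-43737557), was at 23.8 and 21.5 CPM in DMSO, 2.58, 7.07 and 3.4 in 4OHT, 11.6, 12.1 and 14.4 in MEKi and 1.9, 2.5 and 1.67 in MEKi with 4OHT. It fell 5.57-fold without and 6.29-fold with MEKi, and the interaction was -0.18 ± 0.38 (95% interval -0.96 to 0.61, adjusted p = 0.75). Myo1f, an unconventional myosin (chr17:33555707-33607764), was at 9.95 and 10.7 CPM in DMSO, 2.88, 1.55 and 2.23 in 4OHT, 8.33, 7.2 and 7.66 in MEKi and 1.52, 2.0 and 0.88 in MEKi with 4OHT. Both groups with 4OHT lay below their controls for each gene. Porcn, which acylates Wnt proteins, changed by -1.11 without and -1.65 with MEKi. Pax6, an eye and neural factor, changed by -0.79 and -1.75, and its fall without MEKi had an adjusted p of 0.17 without DMSO b and 0.081 without 4OHT a.

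Cholesterol and fatty acid synthesis genes rose with and without MEKi. Of 27, 19 rose and 1 fell with 4OHT, and 17 rose and 0 fell with MEKi. Of the 19 rises, 9 were kept, 5 reduced, 1 lost and none reversed. Of all 3832 rises, 331 were kept, 180 reduced, 2100 lost and 280 reversed. Beside this list, 25.7% of all tested genes rose with 4OHT and 7.65% rose with MEKi. Msmo1, a sterol methyl oxidase, was at 74.9 and 75.3 CPM in DMSO, 155, 179.9 and 184 in 4OHT, 69, 70.8 and 64.8 in MEKi and 125, 112 and 145 in MEKi with 4OHT, with an interaction of -0.30 ± 0.16 (adjusted p = 0.13). Both groups with 4OHT lay above their controls. The list's median interaction was -0.23 with TMM and 0.25 with library totals, where 11 rose without MEKi and 19 with it. Over all 14907 tested genes these medians were 0.02 and 0.48, and with library totals 1293 rose without MEKi and 937 with it. Without the 2 libraries of highest background 9 rose with MEKi, beside 528 of 14592 tested genes, and the list median with MEKi was 0.50.

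Of 20 p53 target genes, 7 rose and 5 fell with 4OHT, and 10 rose and 1 fell with MEKi. With library totals 9 fell with 4OHT, beside 4823 of 14907 tested genes with that scaling. Without the 2 libraries of highest background 6 rose with MEKi, beside 528 of 14592 tested genes. Of all tested genes, 25.7% rose and 26.3% fell with 4OHT, and 7.65% rose and 7.03% fell with MEKi. The p53 counts with 4OHT alone are near those shares and are not read as a result about this list. Cdkn1a, the p21 cell cycle inhibitor, kept its rise, at 33.2 and 44.6 CPM in DMSO, 71.2 to 99.1 in 4OHT, 32.7 to 47.3 in MEKi and 69.7 to 83.9 in MEKi with 4OHT. Phlda3, an inhibitor of AKT, fell and then rose, at 27.1 and 29.2 CPM in DMSO, 17.6 to 26.2 in 4OHT, 24 to 29.1 in MEKi and 36.8 to 38.3 in MEKi with 4OHT (interaction 0.93 ± 0.18, adjusted p = 1.6e-04). It kept that class in 17 of 22 alternatives, and left it without DMSO c, 4OHT a or 4OHT c.

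The count of ribosome biogenesis genes that rose without MEKi depended on the scaling, as did that of all tested genes. Of 29, 21 rose and 0 fell with 4OHT, and 0 rose and 1 fell with MEKi. With library totals 7 rose without MEKi, and with the 14 loci left out 13. The interaction was lower for 21 with TMM but for 1 with library totals. Wdr43, a factor of small subunit assembly, was at 353 and 319 CPM in DMSO, 558 to 569 in 4OHT, 316 to 327 in MEKi and 308 to 317 in MEKi with 4OHT. Of 22 genes of the RAS, RAF, MEK and ERK pathway itself, 15 rose and 2 fell with 4OHT, and 2 rose and 0 fell with MEKi, and 0 were reversed. With library totals 5 rose without MEKi. The interaction of that list was higher for 2 and lower for 12, but for 3 and 3 with library totals. Of 15 heat shock genes, 9 rose and 0 fell with 4OHT, and 1 rose and 1 fell with MEKi. The interaction was lower for 9, but with library totals 5 rose without MEKi and the interaction was lower for 1. Beside these lists, 25.7% of all tested genes rose and 26.3% fell with 4OHT with TMM. With MEKi 7.65% rose and 7.03% fell, and 19.3% had a lower interaction. With library totals 1293 of 14907 tested genes rose with 4OHT, and the interaction was higher for 4754 and lower for 742. With the 14 loci left out 2275 of 14893 rose with 4OHT. Of all 3832 rises with TMM 280 were reversed.

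Gained responses numbered 199 rises and 177 falls. Slc7a7, an amino acid transporter subunit (chr14:54369442-54417780, overlapped by Oxa1l), was at 48.6 and 38.2 CPM in DMSO, 56.3, 46.7 and 47.3 in 4OHT, 40.9, 36.8 and 35.5 in MEKi and 5.89, 6.49 and 5.2 in MEKi with 4OHT. It was low only in the last group (response -2.68 ± 0.14, interaction -2.90 ± 0.19, adjusted p = 2.6e-11). It kept this class in 21 of 22 alternatives and was classed as reversed without DMSO b. Sh2d4b (chr14:40813789-40893266) was at 44 to 69.5 CPM in the other 8 libraries and at 9.97, 9.38 and 11.4 in MEKi with 4OHT. Cdk6, a kinase of the G1 phase (chr5:3341485-3531008), was at 199.9 to 245 CPM in those 8 and at 97.7, 91.8 and 91.5 in MEKi with 4OHT (interaction -1.22 ± 0.12, adjusted p = 1.7e-08). Both again stood apart only in that group. Tdh, a threonine dehydrogenase active in mouse embryonic stem cells, was at 329 and 394 CPM in DMSO, 286 to 385 in 4OHT, 225 to 276 in MEKi and 97.3 to 139.8 in MEKi with 4OHT. The activin subunit gene Inhbb had responses of -0.03 and -2.10. Of the rises named by rule, Pax5 kept its class in 20, Cyp4f39 in 14, S100a13 in 10 and Aqp3 in 9 of 22 alternatives. Pax5 left it without DMSO b or MEKi c, Cyp4f39 without DMSO c, MEKi a, MEKi c, 4OHT c, MEKi with 4OHT a or MEKi with 4OHT c, and S100a13 without DMSO c, MEKi a, MEKi b, 4OHT c or MEKi with 4OHT c. Aqp3 left it without DMSO c, MEKi a, MEKi b, MEKi c, 4OHT a, 4OHT c, MEKi with 4OHT a, MEKi with 4OHT b or MEKi with 4OHT c. Med24 met the rule through MEKi a, with 25241, 495 and 2888 counts in MEKi a, b and c, and kept the class in 6 of 22. It left it without DMSO b, DMSO c, MEKi a, 4OHT a, 4OHT b, 4OHT c, MEKi with 4OHT a, MEKi with 4OHT b or MEKi with 4OHT c.

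The classes differed in gene span and count level, given here as description. Count level affects which responses pass a test, so it is tied to the rule of the classes. The annotated span of the gene had a median of 94966 bp for kept falls and 128340 bp for reduced falls, beside 35348 bp for lost falls and 27015 bp for all tested genes. Kept and reduced rises did not share this, with medians of 21802 and 22045 bp. The median span was 55780 bp for genes that rose and then fell, beside 29596 bp for lost rises. Counts differed too: the median average log2 CPM was 5.69 for kept and 5.77 for reduced falls, beside 4.24 for lost falls. Rises did not share this, with 5.56 for kept and 6.06 for reduced, beside 6.32 for lost. The part of count level in the spans was not tested. The 2 libraries of highest background over long genes are MEKi a and MEKi with 4OHT b; with both left out, the medians were 78698 bp for kept falls, 143420 bp for reduced falls and 49138 bp for genes that rose and then fell. With library totals as the only scaling, which leaves fewer genes in these classes, they were 39371, 60100 and 31574 bp. MEKi alone changed 79 of 14907 genes (0.53%), 67 of them downward (0.449%), and 30 of those 67 were among the 280 genes that rose and then fell. That comparison shares libraries with both responses, so nothing is read from the count.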

How the data were processed

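The deposited values are raw counts of new-RNA reads per gene symbol for 17 libraries; per the submitters' processing notes, the authors used STAR and featureCounts on mm10. Tool versions, annotation and strand setting are not stated in the labels. Genes that overlap another gene are therefore uncertain and are named as such. From the counts, edgeR 4.0.16 (R 4.3.3) fitted 1 term per group over all 17 libraries with TMM scaling, filterByExpr and the robust quasi-likelihood F test, with Benjamini-Hochberg adjustment over 14907 of 25899 genes. The design leaves 11 residual degrees of freedom, and the common BCV (biological coefficient of variation) was 0.0977. Standard errors are the log2 fold change divided by the root of F, so they are approximate, and intervals are 95%. Coordinates are from GENCODE M21 (mm10) for the 14771 genes (99.1%) with a unique symbol, and promoters from RefSeq on GRCm38.p6.

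Named genes were taken by rule: the 10 most negative and 10 most positive interactions, 8 reversed genes of each direction by the smaller of both responses, 4 gained genes and 6 kept genes of each direction by response with MEKi, a set of known genes, and up to 4 members per list by interaction p. For the extreme, reversed, gained and kept genes, but not for the known genes or list members, average log2 CPM had to be at least 1. All but the kept genes among these also needed a called interaction with the same sign in clones b and c. Some genes that the rule names are not reported here. Bmp7, Cdkn1a, Etv3, Lefty2, Msmo1, Nr4a1, Spred3 and Tdh are outside the rule and were chosen after their values were seen. The members and the 30 gene lists were chosen with earlier results of these data known, so no list is independent support. Alternatives numbered 23: each of the 11 compared libraries left out, and 12 others of scaling, filter, tool, set of libraries, size threshold or clone block; limma 3.58.1 and DESeq2 1.42.0 were the other tools. Same-numbered libraries are the same cell clone: residuals of the same clone in different groups had a mean correlation of 0.0972 (15 pairs, -0.147 to 0.362, 6 over 0.1), against -0.048 (30 pairs) for different clones. The fitting code was tested on simulated data with known changes.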

Additional observations from a re-analysis of the deposited data

Results flagged for a closer look

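The response to 4OHT differed between cells with and without MEKi, by a test of the difference itself, for 6022 genes, all of which had an adjusted p under 0.05 with edgeR. Among the named genes whose response changed direction, those that rose without and fell with MEKi had interactions of -7.79 for Spry4, -7.33 for Egr1, -5.60 for Nrp2, -5.15 for Rerg, -4.28 for AC113595.3, -4.13 for Ccdc3, -3.99 for Etv4 and -3.97 for Dusp6. Those that fell without and rose with MEKi had interactions of 3.15 for Hyal1, 3.01 for Padi2, 2.78 for Arhgef19, 2.55 for Cacng5, 2.33 for Fam213b, 2.27 for Fam131c, 2.07 for Eps8l2 and 1.95 for Tmem205.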

How the results depend on the processing

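Of 184 counts compared over 23 alternatives, 153 stayed within 1.5 times the reported count. With library totals as the only scaling, 1130 genes were called with MEKi, 340 were reversed, 58 reduced and 181 kept. With clones b and c alone the counts were 964 called with MEKi, 259 reversed, 158 reduced, 279 kept and 175 gained, from fewer libraries. Without the 2 libraries of highest background they were 1051, 294, 134, 321 and 197 in the same order. Requiring a change of at least 2-fold left 2572 interaction calls, 2748 calls without MEKi, 204 with MEKi, 48 reversed, 1914 lost, 5 reduced, 28 kept and 71 gained, by construction. Leaving out 1 library gave 1380 to 2397 calls with MEKi, 204 to 431 reduced, 392 to 629 kept and 231 to 388 gained. The lowest values came without MEKi a; without MEKi with 4OHT c they were 1437, 235, 402 and 250, and without MEKi c 241 were reduced. With clone as a replicate block, 6353 interaction calls, 2767 calls with MEKi, 689 reversed, 4417 lost, 502 reduced, 722 kept and 441 gained genes were found, all within 1.5 times the values without the block; Hbegf, Lefty1 and Tbx3 are among the named genes that changed class. Of 141 named genes called in the interaction, 108 kept the call in every alternative, and 19 of the other 33 lost it only with library totals. The interaction of Nop56 and Rif1 changed sign with library totals, to 0.007514 and 0.1037; the cause was not tested. Depth limits genes near 0.247 CPM.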

Other observations

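The series also holds the 4OHT response in cells given PP1, the compound at 2 µM in the groups not compared above. The values below are described with no test between inhibitors. Over the 280 genes that rose with 4OHT and fell with it under MEKi, the median log2 response with PP1 was 0.36, with 232 above 0 and 48 below. Over all 3832 genes that rose with 4OHT it was 0.28, with 3322 above 0 and 510 below. Spry4, Egr1, Dusp6, Etv4, Rerg and Nrp2 had responses with PP1 of 4.07, 4.91, 1.66, 1.85, 1.56 and 1.45, against -3.44, -2.09, -2.12, -2.30, -2.38 and -1.99 with MEKi. Over the 246 genes that fell and then rose with MEKi, the median with PP1 was -0.15, with 93 above 0 and 153 below, beside -0.28, 797 and 3123 over all 3920 genes that fell. Padi2 and Rasgef1a were at -1.22 and -0.93.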
